A study of Mus musculus with 35 samples.

Results

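NMuMG cells are an epithelial line from the mouse mammary gland, which the labels write as NmuMG. They were compared at the time labelled 72 h, under an inhibitor of the stress kinase JNK (JNKi) or under the vehicle DMSO. The comparison rests on the JNKi and DMSO libraries of 72 h, 2 of each, so 4 of the 35 RNA-seq samples of the series. It takes in every gene whose normalized read count averages 10 or more in either group, 12516 of the 20261 genes in the deposited table, and differences were taken within the same replicate number, JNKi minus DMSO. Both groups have the genotype WT, the strain entry E9 and mammary gland as tissue. The labels name neither the inhibitor compound nor its dose, and the same treatment protocol stands on all samples: TGF-β at 2 ng/ml, with fresh TGF-β and medium every 2 days. The vehicle cells therefore carry the TGF-β treatment as far as the labels go, and no cells without it enter the comparison. Libraries of both arms at 24 h, 48 h, 96 h and 7 d, 2 per arm and time, were used for the error estimate and for a comparison between times, and the 15 samples of a separate TGF-β time course were not analysed here. Whether the replicates were grown as separate cultures is not given in the labels, so the p-values rest on a spread between libraries that may be purely technical.

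JNK, short for Jun N-terminal kinase, is the stress-activated branch of the MAP kinases. Its best known substrate is Jun, which pairs with Fos or ATF proteins to form AP-1, a transcription factor that binds short sites near genes for proteases, cytokines and proliferation. In NMuMG cells TGF-β, a growth factor of epithelia and matrix, signals through Smads and through other branches, JNK among them, and drives an epithelial-mesenchymal transition (EMT), in which cells loosen their junctions, remodel actin and secrete matrix. The comparison addresses which transcripts have another level when JNK is inhibited in the course of that response.

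The 72 h libraries held 36.9 and 35.5 M reads with JNKi (replicates 1 and 2) and 48.6 and 33.6 M reads with DMSO, recovered from the deposited values. The epithelial keratins Krt8 and Krt18 and the adherens junction gene Cdh1 were present in all 4 libraries, with Krt8 at 127230.0 and 111643 with JNKi and 147978 and 120567 with DMSO, whereas Epcam, a surface marker of most epithelia, was listed at 0 in 3 libraries and at 0.6 in DMSO replicate 1. Of other cell types, the 16 leukocyte markers summed to 1841 and 1524 normalized reads with JNKi and 1976 and 1767 with DMSO, with Emr1 and Tyrobp at 0 in all 4 libraries. The 12 endothelial markers summed to 665 and 671 with JNKi and 722 and 706 with DMSO, with Cldn5 at 0 in all 4, and the 8 adipocyte markers in the table to 10.6 and 16 with JNKi and 14.5 and 14.1 with DMSO, with Plin1 at 0 in all 4. Reads of Lars2, a gene whose count can carry ribosomal RNA, were 3515 and 3534 per M with JNKi and 3323 and 2963 per M with DMSO. Reads of 535 olfactory and vomeronasal receptor genes, which these cells should not use, were 37.9 and 42.5 per M with JNKi and 38.6 and 49.8 per M with DMSO.

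At 72 h, JNKi cells had higher transcript levels of several chemokines, acute-phase and antimicrobial genes, a pair of matrix proteases, some cornified envelope genes and some p53 target genes, and lower levels of several basement membrane components, a pair of latent TGF-β binding proteins, Il11 and Mcam. Changes were modest: 334 of 12516 genes were called (2.67%), 127 of them higher (1.01%) and 207 lower (1.65%), by limma on log2(normalized read count + 1) with replicate number as a block within each time and a Benjamini-Hochberg adjusted p under 0.05. The log2 difference is the mean of both within-replicate differences, on a scale that understates the change of low genes. Of the higher genes, 8 reached the mean of 10 through the JNKi libraries alone. Only 33 higher and 5 lower genes changed at least 2-fold. Among the called genes the median log2 difference was 0.54 for those higher and -0.36 for those lower, against -0.002 over all 12516 genes, whose quartiles were -0.11 and 0.10. The higher genes had a median normalized read count of 705 and the lower genes of 2315, against 873 over all genes, with no correction for transcript length. In bulk RNA, fewer cells of a kind and less RNA per cell cannot be told apart.

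The count rests on the block by replicate number and on replicate 2. Without the block, limma called 10 genes (0.0799%), 6 higher (Ccl20, Sprr2h, Ccl7, Mmp13, Bcl2l15 and Neurl3) and 4 lower (Mcam, Col5a1, Ltbp3 and Slc4a8). With either replicate 1 library left out, so that the difference is that of the other pair, 59 genes were called, and with either replicate 2 library left out, 1, Sprr2h. Leaving out the 7 d libraries, which share in the error estimate, gave 722 calls, and leaving out those of 24 h gave 224, with 128 lower. Fits with no filter on low values or no trend of variance on level called 2 and 3 genes, and edgeR on the recovered reads 655. All 334 called genes had the same sign in both pairs, and the JNKi and DMSO libraries did not overlap in 121 of the 127 higher and 192 of the 207 lower genes, where 36.9% of all 12516 genes did not overlap (17.9% with JNKi higher, 19% with JNKi lower). The test with the block selects for agreement of the pairs, so the shared sign is not separate evidence. Across the 9528 genes whose mean over the 4 libraries reached 200, the differences of both pairs had Pearson's r of 0.58 and Spearman's rho of 0.52, a description across genes, which are not independent replicates.

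**Figure D1:**
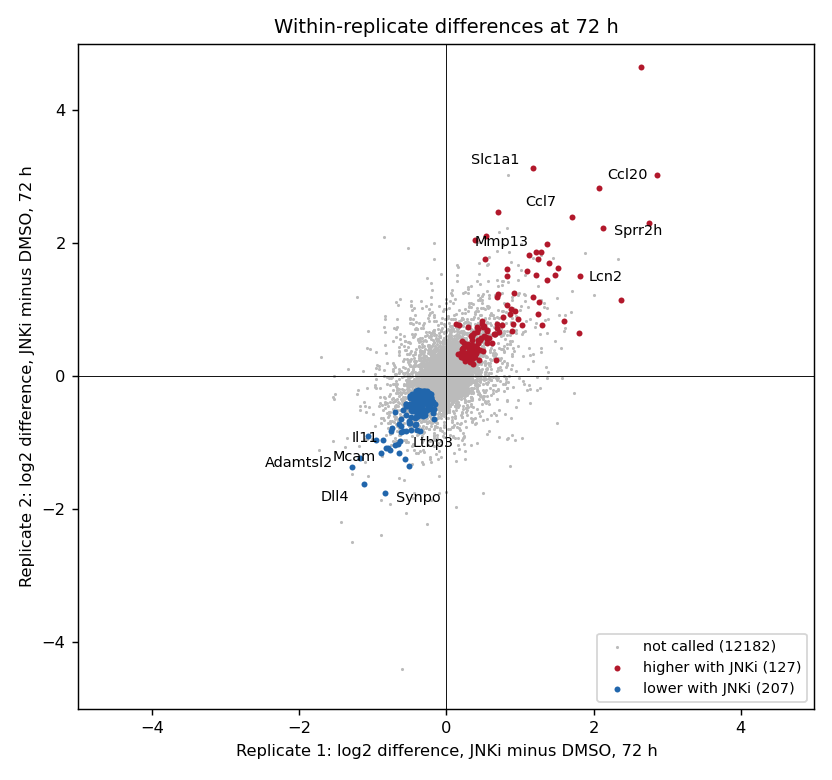
Each point is 1 of 12516 genes, with the log2 difference JNKi minus DMSO of replicate 1 on the x axis and of replicate 2 on the y axis, and with the genes called higher (127) and lower (207) in colour. The called genes lie at the upper right and lower left, and the called increases reach farther from 0 than the decreases.

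The transcripts of the kinases at which the inhibitor is aimed, and of their main substrate, were not called. Mapk8, which encodes JNK1, stood at 851 and 959.8 in the JNKi libraries, against 874 and 888 in the DMSO libraries. Mapk9, which encodes JNK2, stood at 2452 and 2329.8 in the JNKi libraries, against 2389 and 2503 in the DMSO libraries. Jun stood at 2244 and 2183 in the JNKi libraries, against 2052 and 2387 in the DMSO libraries. In all 3 genes the groups overlapped, with log2 differences of 0.04, -0.03 and -0.00 and limma adjusted p of 0.894, 0.854 and 1.00. A catalytic inhibitor need not change the level of its target's transcript, so these values do not check the labels. Of 18 JNK cascade kinases and scaffolds none was called (median log2 difference -0.05), with 3 at an unadjusted p under 0.05, 1 called by edgeR and 0 by DESeq2. Map4k4, an upstream kinase, stood at 14771 and 13137 with JNKi and 14212 and 12927 with DMSO, and Spag9, the scaffold JIP4, at 7068 and 6693 with JNKi and 7117 and 7662 with DMSO. Here and in the lists that follow, members that were not called are named for the highest read counts of their list, which are not corrected for transcript length. The counts of each list stand beside the shares over all 12516 genes, 1.01% called higher and 1.65% lower. Of all 12516 genes, 2314 had an unadjusted p under 0.05, and 49.5% of the differences were positive. Over the 13896 genes fitted, edgeR called 655 and DESeq2 325. Of 15 AP-1 genes none was called (median -0.05), with 1 at an unadjusted p under 0.05, 0 called by edgeR and 0 by DESeq2. Junb stood at 14507 and 13898 with JNKi and 17291 and 14837 with DMSO and Jund at 12300.3 and 9677 with JNKi and 12683 and 9826 with DMSO. Of 18 MAPK phosphatases and Sprouty genes none was called (median 0.01), with 8 at an unadjusted p under 0.05, 1 called by edgeR and 0 by DESeq2. Dusp4 stood at 9855 and 6796 with JNKi and 9726 and 6348 with DMSO and Dusp1 at 3969.5 and 1868 with JNKi and 4296 and 2226 with DMSO.

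Among immediate-early genes outside AP-1, Egr1 differed more between replicates than between arms. Egr1, an early growth response factor, stood at 835 and 146 in the JNKi libraries, against 1390.2 and 249 in the DMSO libraries. Replicate 1 was several times higher than replicate 2 in both arms, and the groups overlapped. Within each replicate number Egr1 was lower with JNKi, with a log2 difference of -0.75 (SE 0.16, limma adjusted p = 0.0277), and without the block its adjusted p was 0.955. The inhibitors of differentiation Id1 and Id2, which block basic helix-loop-helix factors, rose. Id2 stood at 1435 and 1093 in the JNKi libraries, against 930.0 and 769 in the DMSO libraries. For Id2 the log2 difference was 0.57 (SE 0.14, limma adjusted p = 0.0434), and 0.46 with GC content and length regressed out, where it was not called (adjusted p = 0.102). Id1 stood at 1775 and 2068 in the JNKi libraries, against 1576 and 1213 in the DMSO libraries, a log2 difference of 0.47 (limma adjusted p = 0.0412). These 3 were the called members among 18 tested (median 0.03). Ier3 at 21546 and 12270.1 with JNKi and 22469 and 15092 with DMSO and Klf6 at 13648 and 8862 with JNKi and 13022 and 9326 with DMSO were not called. Within replicate numbers, 85 genes of the comparison were at least 2-fold apart between replicates in the same direction in both arms.

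Chemokines, the secreted attractants of leukocytes, rose in 6 of 13 tested members and fell in none, with a median log2 difference of 0.65 and 11 of 13 positive. Ccl20, the ligand of the receptor Ccr6, stood at 152 and 356 in the JNKi libraries, against 35.4 and 49.2 in the DMSO libraries. Ccl20 differed by 2.45 (SE 0.31, limma adjusted p = 0.00133) on the log2 scale. Both JNKi libraries lay well above both DMSO libraries, with replicate 2 the higher in each arm. Ccl7, an attractant of monocytes, stood at 270.4 and 332 in the JNKi libraries, against 82.1 and 62.4 in the DMSO libraries. For Ccl7 the log2 difference was 2.05 (SE 0.23, limma adjusted p = 0.000937), and the groups did not overlap. Ccl2, another attractant of monocytes, stood at 7972 and 8137 in the JNKi libraries, against 5709 and 4589 in the DMSO libraries. Ccl2 differed by 0.65 (SE 0.14, limma adjusted p = 0.0247) on the log2 scale. Of the neutrophil attractants, Cxcl1 stood at 1199.7 and 847 in the JNKi libraries, against 842 and 499 in the DMSO libraries, with 0.64 (limma adjusted p = 0.00281), the groups just failing to overlap. Cxcl5 stood at 117 and 94.1 in the JNKi libraries, against 32.8 and 59.8 in the DMSO libraries, with 1.23 (limma adjusted p = 0.0271). Cxcl16, a membrane-bound chemokine, rose by 0.56 (limma adjusted p = 0.048). These 3 were named after their values were seen. Cx3cl1, with the highest read count of the list after Ccl2, stood at 1546 and 1638 in the JNKi libraries, against 1554 and 1337 in the DMSO libraries and was not called. Without the block Ccl20 and Ccl7 were the called members. With GC content and transcript length regressed out 4 members were called, and Ccl2 differed by 0.50 (adjusted p = 0.0858).

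The window of 250 bases before the annotated start is shown for Ccl20 and Cxcl1, as chemokines that rose, and for Nfkbia, which encodes the NF-kB inhibitor IkBα and rose with them, because each holds letters that match the NF-kB site. The sequences are those of RefSeq on build GRCm38.p6, 5′ to 3′ on the strand of the gene. Capitals mark the match. These genes were chosen among those with such a match, which stood in 16 windows of called higher genes. They come from chr1:83116516-83116765 (plus strand), chr5:90890995-90891244 (plus strand, 2 overlapping matches) and chr12:55492648-55492897 (minus strand).
Ccl20: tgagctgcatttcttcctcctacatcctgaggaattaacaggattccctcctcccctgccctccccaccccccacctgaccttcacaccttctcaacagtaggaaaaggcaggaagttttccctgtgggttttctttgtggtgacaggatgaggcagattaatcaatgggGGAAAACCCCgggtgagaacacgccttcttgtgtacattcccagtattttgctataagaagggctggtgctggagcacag
Cxcl1: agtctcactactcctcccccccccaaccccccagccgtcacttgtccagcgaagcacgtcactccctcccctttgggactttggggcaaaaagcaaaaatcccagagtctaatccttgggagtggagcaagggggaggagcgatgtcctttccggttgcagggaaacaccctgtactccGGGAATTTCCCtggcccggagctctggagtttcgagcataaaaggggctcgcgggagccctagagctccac
Nfkbia: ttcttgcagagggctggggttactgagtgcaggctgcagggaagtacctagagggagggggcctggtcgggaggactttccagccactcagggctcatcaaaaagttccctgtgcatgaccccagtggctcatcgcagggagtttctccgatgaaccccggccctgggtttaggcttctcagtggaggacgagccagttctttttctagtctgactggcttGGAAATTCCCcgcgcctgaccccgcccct
The match begins 29 bases before the start in Nfkbia, 80 bases in Ccl20 and, for the first of its overlapping matches, 71 bases in Cxcl1. Such a match is a description of the letters, not a site shown to be bound.

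Nfkbia stood at 966 and 1501 in the JNKi libraries, against 757 and 980.4 in the DMSO libraries. For Nfkbia the log2 difference was 0.48 (SE 0.11, limma adjusted p = 0.0343). DMSO replicate 2 lay above JNKi replicate 1, so the groups overlapped, while each pair differed in the same direction. It was the only called member among 18 NF-kB subunits and inhibitors (median 0.06). The subunit gene Nfkb2 at 5604 and 6937 with JNKi and 5721 and 6754 with DMSO and the kinase gene Chuk at 17459.7 and 17820.3 with JNKi and 16156 and 18025 with DMSO were not called. Vcam1, an adhesion molecule for leukocytes, stood at 165 and 216 in the JNKi libraries, against 66.9 and 58.0 in the DMSO libraries. Vcam1 differed by 1.58 (SE 0.21, limma adjusted p = 0.002) on the log2 scale. Cd74, the invariant chain of MHC class II, stood at 55.4 and 89.3 in the JNKi libraries, against 25.3 and 29.0 in the DMSO libraries. For Cd74 the log2 difference was 1.35 (SE 0.27, limma adjusted p = 0.0196). In both genes the groups did not overlap. Ptprc, the pan-leukocyte marker Cd45, was at 3.3 and 3.2 normalized reads with JNKi and 0.6 and 1.8 with DMSO, and the summed leukocyte markers given above were lower with JNKi in both pairs. Most of that sum is Cd14 and Csf1r, at 942 and 613 of 1841 in JNKi replicate 1. Ptprc, near the floor, went the other way. None of 25 interferon-stimulated genes was called (median 0.08), with 6 at an unadjusted p under 0.05, 1 called by edgeR and 0 by DESeq2. B2m, the light chain of MHC class I, stood at 5362 and 4995 with JNKi and 5037 and 4749.9 with DMSO and Irf1 at 1631 and 2442 with JNKi and 1761 and 2393 with DMSO.

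Of the 14 tested acute-phase, complement and antimicrobial genes, 12 averaged 10 or more over the 4 libraries of 72 h, and of these 3 rose and none fell, with a median log2 difference of 0.23. Lcn2, a lipocalin that binds bacterial siderophores, stood at 169 and 115 in the JNKi libraries, against 47.4 and 39.6 in the DMSO libraries. Lcn2 differed by 1.67 (SE 0.20, limma adjusted p = 0.000952) on the log2 scale. The groups were well apart and replicate 1 was the higher in both arms. Saa3, a serum amyloid, stood at 10.6 and 14.5 in the JNKi libraries, against 0.6 and 0.9 in the DMSO libraries. S100a9, a subunit of calprotectin, stood at 9.8 and 12.9 in the JNKi libraries, against 0.6 and 1.8 in the DMSO libraries. These 2 genes reached the filter through the JNKi libraries alone, and their DMSO values stand for 1 or 2 reads per library. Their values are a description, with no test or fold. The other calprotectin subunit, S100a8, stood at 46.4 and 36.2 in the JNKi libraries, against 8.2 and 15.8 in the DMSO libraries, with a log2 difference of 1.76 (limma adjusted p = 0.0103). Complement C3 stood at 1726 and 1731 in the JNKi libraries, against 930.0 and 1082 in the DMSO libraries, with 0.78 (limma adjusted p = 0.0222). Both were named after their values were seen. Lbp at 9089 and 9072 with JNKi and 9088 and 8536 with DMSO and ceruloplasmin (Cp) at 6318 and 4977 with JNKi and 6879.8 and 6945 with DMSO were not called. Without the block no member was called.

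**Figure D2:**
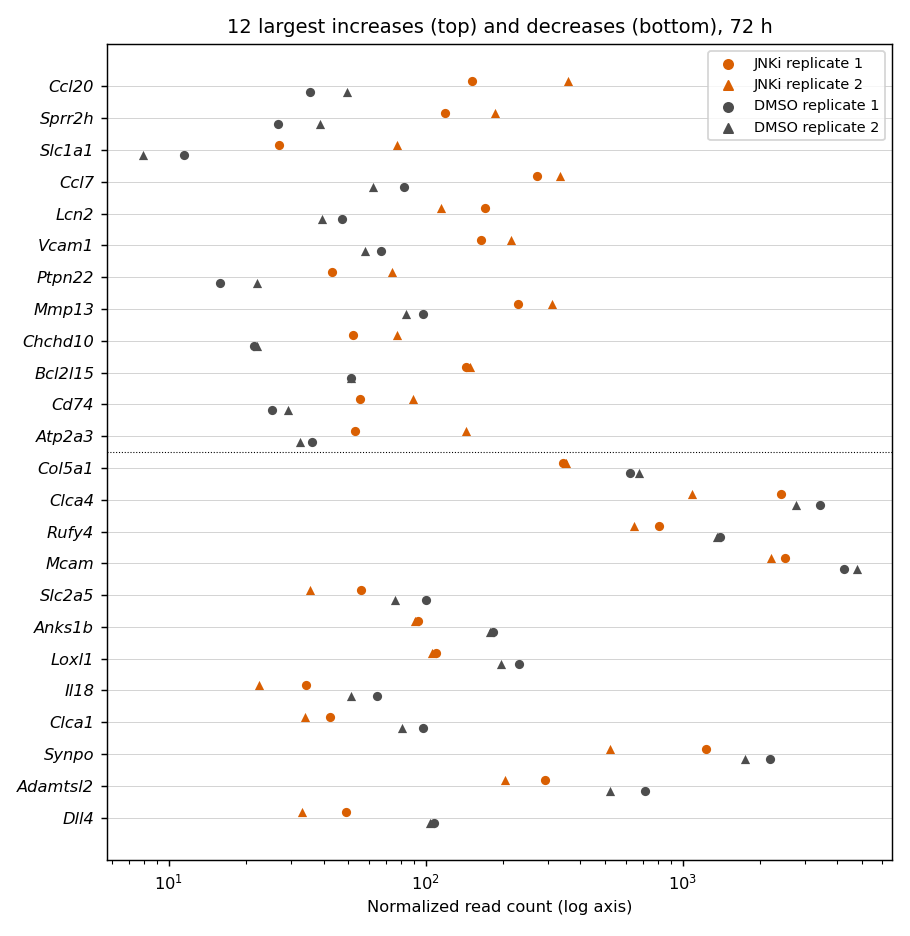
Normalized read counts of the 12 largest called increases (top) and the 12 largest called decreases (bottom) whose mean reaches 50 in either group, on a log axis. Orange marks are JNKi and grey marks DMSO, circles are replicate 1 and triangles replicate 2, and in each gene both JNKi marks lie on the same side of both DMSO marks. Slc1a1 reached the filter through the JNKi libraries alone, so its place among the increases is not read as a result.

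Of 11 tested matrix metalloproteinases, the enzymes that cleave matrix proteins, 2 rose and none fell (median log2 difference 0.07). Mmp13, a collagenase, stood at 228 and 309 in the JNKi libraries, against 97.9 and 83.5 in the DMSO libraries. Mmp13 differed by 1.54 (SE 0.18, limma adjusted p = 0.000937) on the log2 scale, and was also called without the block. Mmp9, a gelatinase, stood at 1148 and 2643 in the JNKi libraries, against 651 and 863 in the DMSO libraries. Mmp9 differed by 1.22 (SE 0.21, limma adjusted p = 0.00865) on the log2 scale. Replicate 2 rose more than replicate 1 in Mmp9, by 1.61 against 0.82 on the log2 scale. The membrane-bound Mmp14 stood at 15411 and 16924 in the JNKi libraries, against 16049.6 and 14841 in the DMSO libraries and was not called. Of 11 genes for protease inhibitors and plasminogen activation (median 0.06) 1 rose and 1 fell. Slpi, an inhibitor of leukocyte elastase, stood at 146 and 217 in the JNKi libraries, against 82.1 and 75.6 in the DMSO libraries. For Slpi the log2 difference was 1.17 (SE 0.17, limma adjusted p = 0.00266). Plat, tissue plasminogen activator, stood at 7236 and 7059 in the JNKi libraries, against 8812 and 8392 in the DMSO libraries, a log2 difference of -0.27 (limma adjusted p = 0.0267). Timp2 at 29000.2 and 26111 with JNKi and 27789 and 25086 with DMSO was not called.

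Genes of the cornified envelope, the cross-linked shell of stratified epithelium, rose in 3 of 10 tested members and fell in 1 (median 0.37). Sprr2h, a small proline-rich protein, stood at 119 and 186 in the JNKi libraries, against 26.5 and 38.7 in the DMSO libraries. Sprr2h differed by 2.18 (SE 0.18, limma adjusted p = 5.50e-05) on the log2 scale. It had the lowest p of the comparison and was the only gene called in each pair alone, with adjusted p of 0.00347 without replicate 1 and 0.0323 without replicate 2. Sprr2 genes are near-identical copies, so reads may be split between them. Sprr1a stood at 257 and 262 in the JNKi libraries, against 152 and 152 in the DMSO libraries, with 0.77 (limma adjusted p = 0.0118). Sprr1b stood at 2189 and 2281 in the JNKi libraries, against 1746 and 1672 in the DMSO libraries, with 0.39 (limma adjusted p = 0.0351). Periplakin, Ppl, which links desmosomes to keratin, was lower at 1429 and 956 in the JNKi libraries, against 1839 and 1692 in the DMSO libraries. Ppl differed by -0.59 (SE 0.15, limma adjusted p = 0.0477) on the log2 scale, and lost its call when GC content and transcript length were regressed out (-0.54, adjusted p = 0.081). Of 11 keratins (median 0.06) 1 was called. Krt16, a keratin of stressed epidermis, stood at 163 and 237 in the JNKi libraries, against 91.5 and 112 in the DMSO libraries. Krt16 differed by 0.95 (SE 0.22, limma adjusted p = 0.0372) on the log2 scale. Krt8 and Krt18 were not called, with Krt18 at 98980.0 and 80263 with JNKi and 107079 and 87562 with DMSO.

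The same window is shown for Mmp13, Sprr2h and Adh7, called increases that each hold the letters TGANTCA of the AP-1 site. They were chosen among the genes with such a match, which stood in 10 windows of called higher genes. Adh7 is the gene whose difference stood apart from the other times. The sequences are again RefSeq's on GRCm38.p6 from chr9:7272264-7272513, chr3:92385435-92385684 and chr3:138217523-138217772, all on the plus strand, with the match in capitals.
Mmp13: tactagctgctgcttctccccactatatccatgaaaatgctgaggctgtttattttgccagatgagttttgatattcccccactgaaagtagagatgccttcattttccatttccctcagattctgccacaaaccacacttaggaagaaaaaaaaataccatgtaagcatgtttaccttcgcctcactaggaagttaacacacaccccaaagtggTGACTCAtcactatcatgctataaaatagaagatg
Sprr2h: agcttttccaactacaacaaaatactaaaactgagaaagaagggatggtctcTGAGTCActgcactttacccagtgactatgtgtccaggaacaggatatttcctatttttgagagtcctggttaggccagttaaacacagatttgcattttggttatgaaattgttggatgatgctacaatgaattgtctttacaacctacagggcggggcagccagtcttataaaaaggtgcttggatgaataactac
Adh7: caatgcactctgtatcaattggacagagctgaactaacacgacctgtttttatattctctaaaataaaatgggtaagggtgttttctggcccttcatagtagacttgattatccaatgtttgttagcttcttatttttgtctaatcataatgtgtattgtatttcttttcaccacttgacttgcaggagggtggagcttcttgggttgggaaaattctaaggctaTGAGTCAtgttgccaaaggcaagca
The match begins 35 bases before the start in Mmp13, 25 bases in Adh7 and 198 bases in Sprr2h. It is again a description of the letters, not a site shown to be bound.

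Over all windows, each motif was searched on both strands and on its own, so overlapping matches of different motifs both count. Windows were found for 86 of the 127 higher genes (102 windows, as a gene can have several starts) and for 152 of the 207 lower genes (210 windows). TGANTCA stood in 10 windows of higher genes (9.80%) and 13 of lower genes (6.19%), against 4.94% of the windows of all genes of the comparison and 6.75% of all windows in the table. The NF-kB motif stood in 16 windows of higher genes (15.7%) and 23 of lower genes (10.95%), against 9.25% over the comparison and 7.25% over the table. The E-box CACCTG, the kind of site that Snail and Zeb factors bind, stood in 13 windows of higher genes (12.7%) and 35 of lower genes (16.7%), against 15.7% over the comparison and 17.2% over the table. These shares are descriptions with no test.

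Targets of p53, the stress-responsive tumour suppressor, rose in 7 of 24 tested members and fell in none, with a median of 0.22 and 19 of 24 positive. Fas, the death receptor, stood at 197 and 252 in the JNKi libraries, against 103 and 128 in the DMSO libraries. For Fas the log2 difference was 0.95 (SE 0.16, limma adjusted p = 0.00807). Eda2r, a receptor of the TNF family, stood at 685 and 735 in the JNKi libraries, against 436 and 472 in the DMSO libraries. Eda2r differed by 0.64 (SE 0.10, limma adjusted p = 0.00591) on the log2 scale. In both genes the replicates lay close together and the groups were apart. The other 5, named after their values were seen, were Ccng1 (0.53, limma adjusted p = 0.000937), Perp (0.45), Trp53inp1 (0.44), Zmat3 (0.40) and Pmaip1, which encodes the BH3 protein Noxa (0.26). Mdm2, the ligase that degrades p53, stood at 116168 and 112140.0 in the JNKi libraries, against 102064 and 96348 in the DMSO libraries. Plk2 stood at 18024 and 16529.9 in the JNKi libraries, against 16906 and 13776 in the DMSO libraries. Neither was called. With GC content and transcript length regressed out 7 members were called, all higher, and without the block none.

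In the cell-cycle lists the D cyclins were the only calls. Of 16 CDK inhibitors, D cyclins and Myc network genes (median 0.06) the called members were Ccnd1 and Ccnd2, partners of Cdk4 and Cdk6. Ccnd1 stood at 21847 and 18974 in the JNKi libraries, against 18604 and 14051 in the DMSO libraries. For Ccnd1 the log2 difference was 0.33 (SE 0.08, limma adjusted p = 0.0331). Ccnd2 stood at 1920.4 and 2244 in the JNKi libraries, against 1664 and 1549 in the DMSO libraries. Ccnd2 differed by 0.37 (SE 0.09, limma adjusted p = 0.0372) on the log2 scale, and by 0.33 (adjusted p = 0.0536) with GC content and length regressed out. Myc stood at 7055 and 6572 in the JNKi libraries, against 7349.6 and 5915 in the DMSO libraries and was not called. None of 30 mitosis and spindle genes was called, though 28 of the 30 differences were negative (median -0.16), with 9 at an unadjusted p under 0.05, 3 called by edgeR and 0 by DESeq2. Over all 12516 genes, 2314 had an unadjusted p under 0.05, and 49.5% of the differences were positive. Top2a stood at 8984 and 9643 in the JNKi libraries, against 9299 and 10775 in the DMSO libraries. Mki67, a marker of cycling cells, stood at 5071 and 4502 in the JNKi libraries, against 5534 and 5971 in the DMSO libraries. None of 32 replication genes was called, with 25 negative (median -0.08), with 3 at an unadjusted p under 0.05, 1 called by edgeR and 0 by DESeq2. Mcm4 stood at 6037 and 5649 with JNKi and 6061 and 6369 with DMSO and Rrm1 at 5379 and 5248 with JNKi and 5479.5 and 5939 with DMSO. None of 45 cytosolic ribosomal protein genes was called, with 41 positive (median 0.11), with 7 at an unadjusted p under 0.05, 0 called by edgeR and 0 by DESeq2. Rplp0 stood at 52531 and 45743 with JNKi and 51999 and 42018 with DMSO and Rps2 at 41801 and 35035 with JNKi and 39975 and 32177 with DMSO.

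The basement membrane list, which holds the sheet of collagen IV and laminin under epithelia, had 7 of 16 tested members lower and none higher, with a median log2 difference of -0.28 and 14 of 16 negative. Col4a1, a chain of the type IV collagen network, stood at 31596 and 37094 in the JNKi libraries, against 44284 and 51556 in the DMSO libraries. For Col4a1 the log2 difference was -0.48 (SE 0.08, limma adjusted p = 0.00899). Its partner chain Col4a2 fell by 0.46 on the log2 scale (limma adjusted p = 0.0099). In both chains replicate 2 was the higher in each arm and the groups did not overlap. Lamb2, a laminin β chain, stood at 4289 and 4690.2 in the JNKi libraries, against 6259 and 7018 in the DMSO libraries. Lamb2 differed by -0.56 (SE 0.06, limma adjusted p = 0.000937) on the log2 scale. Agrin, Agrn, a heparan sulfate proteoglycan, stood at 39835 and 39024 in the JNKi libraries, against 50241 and 52241 in the DMSO libraries. Agrn differed by -0.38 (SE 0.09, limma adjusted p = 0.0389) on the log2 scale, and lost its call with GC content and length regressed out (-0.31, adjusted p = 0.0592). Lama5, Lamb1 and perlecan (Hspg2), with Col4a2 named after their values were seen, had differences of -0.31, -0.35 and -0.45 (limma adjusted p = 0.0247, 0.0489 and 0.0112). The median GC content of the list was 53.8%, against 49.8% over all genes of the comparison; with GC content and length regressed out 5 members were called lower, with a median of -0.22. Without the block none was called.

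Interstitial matrix genes were called in the same direction. Of 9 fibrillar and type VI collagens 2 were lower and none higher (median -0.37, median GC content 58.9%). Col5a1, which seeds type I collagen fibrils, stood at 341 and 351 in the JNKi libraries, against 623 and 679 in the DMSO libraries. Col5a1 differed by -0.91 (SE 0.14, limma adjusted p = 0.00485) on the log2 scale. Both pairs differed almost equally, by -0.87 and -0.95, and the gene was also called without the block. Col1a1 stood at 1278 and 1373 in the JNKi libraries, against 1707 and 1918 in the DMSO libraries. Col1a1 differed by -0.45 (SE 0.11, limma adjusted p = 0.0381) on the log2 scale, and lost its call with GC content and length regressed out (-0.35, adjusted p = 0.0801). Col27a1 at 10149 and 11475 with JNKi and 11983 and 13761 with DMSO and Col6a1 at 2592 and 2451 with JNKi and 3276 and 3248 with DMSO were not called. Of 16 collagen modifying enzymes 3 were lower and none higher, and all 16 differences were negative (median -0.21). Loxl1, a lysyl oxidase, stood at 109.9 and 105 in the JNKi libraries, against 231 and 197 in the DMSO libraries. Loxl1 differed by -0.98 (SE 0.20, limma adjusted p = 0.02) on the log2 scale. Pcolce, which enhances procollagen cleavage, stood at 1332 and 1252 in the JNKi libraries, against 1597 and 1592 in the DMSO libraries. For Pcolce the log2 difference was -0.30 (SE 0.07, limma adjusted p = 0.0255). Plod1, a lysyl hydroxylase named after its values were seen, fell by 0.29 (limma adjusted p = 0.0418). P4hb at 37126 and 32652 with JNKi and 40020.2 and 38475 with DMSO and Tgm2 at 18072 and 20436 with JNKi and 19400.2 and 19856 with DMSO were not called. With GC content and length regressed out the count stayed at 3 lower in this list.

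Latent TGF-β binding proteins hold the inactive ligand in the matrix. Of 10 tested latent TGF-β binding proteins and fibrillins 2 were lower and none higher, and all 10 differences were negative (median -0.28). Ltbp3, needed for secretion of the latent complex, stood at 17250.4 and 15299.8 in the JNKi libraries, against 26340.0 and 25613 in the DMSO libraries. Ltbp3 differed by -0.68 (SE 0.07, limma adjusted p = 0.000327) on the log2 scale. Its groups were far apart relative to the replicate spread, and it was called without the block as well (adjusted p = 0.00391). Ltbp4 stood at 1279.5 and 1059 in the JNKi libraries, against 1797 and 1716 in the DMSO libraries. For Ltbp4 the log2 difference was -0.59 (SE 0.08, limma adjusted p = 0.00195). Fibulin-2 (Fbln2) stood at 116966 and 135000.0 in the JNKi libraries, against 151228 and 163650.0 in the DMSO libraries. Bmp1, a protease that cleaves procollagens and latent complexes, stood at 18731 and 22967 in the JNKi libraries, against 22762 and 26903 in the DMSO libraries. Neither was called. Adamtsl2, an ADAMTS-like glycoprotein that binds fibrillin and Ltbp1, had one of the largest decreases, at 292 and 203 in the JNKi libraries, against 712 and 521 in the DMSO libraries. Adamtsl2 differed by -1.32 (SE 0.18, limma adjusted p = 0.00206) on the log2 scale. Of 18 TGF-β ligands and receptors none was called (median -0.03), with 3 at an unadjusted p under 0.05, 2 called by edgeR and 1 by DESeq2. Acvr1, a type I receptor, stood at 8254 and 7461 with JNKi and 8525 and 7699 with DMSO. Of 15 Smads, feedback inhibitors and direct targets Ltbp4 was the only call (median -0.04). Pmepa1, a feedback inhibitor, stood at 24405 and 24167 with JNKi and 24857 and 25288 with DMSO.

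Matricellular glycoproteins fell in 2 of 15 tested members and rose in none (median -0.17). Tenascin C (Tnc) stood at 47401 and 46326 in the JNKi libraries, against 71214 and 81698 in the DMSO libraries. For Tnc the log2 difference was -0.70 (SE 0.09, limma adjusted p = 0.00195), and the groups were well apart. Thrombospondin 3 (Thbs3) stood at 3516 and 4255 in the JNKi libraries, against 5158 and 5663 in the DMSO libraries. Thbs3 differed by -0.48 (SE 0.07, limma adjusted p = 0.0023) on the log2 scale. Fibronectin (Fn1), a mesenchymal hallmark, stood at 283001 and 311222 in the JNKi libraries, against 374379 and 422435 in the DMSO libraries. The groups did not overlap, but the difference of -0.42 was not called (limma adjusted p = 0.12). Thbs1 at 114302 and 109200.0 with JNKi and 124186 and 119643 with DMSO was not called. None of 15 integrin subunits was called (median -0.00), with 7 at an unadjusted p under 0.05, 2 called by edgeR and 3 by DESeq2. Itgb1 stood at 66962 and 67445 with JNKi and 75878 and 85448 with DMSO and Itga3 at 31526 and 35145 with JNKi and 31443 and 33076 with DMSO.

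The cadherins, vimentin and the transcription factors that mark EMT were not called. Cdh1, E-cadherin, stood at 9621 and 9600.0 in the JNKi libraries, against 10116 and 8766 in the DMSO libraries, with a difference of 0.03 (limma adjusted p = 0.918). Cdh2, N-cadherin, stood at 11585 and 10428 in the JNKi libraries, against 12176 and 12849 in the DMSO libraries, with -0.19 (limma adjusted p = 0.264). Vimentin (Vim) stood at 56771 and 52524 in the JNKi libraries, against 56945 and 52479 in the DMSO libraries, with -0.00 (limma adjusted p = 0.998). The groups overlapped in Cdh1 and Vim. None of 9 EMT transcription factors was called (median -0.03), with 2 at an unadjusted p under 0.05, 0 called by edgeR and 0 by DESeq2. Snai1 stood at 547 and 729 in the JNKi libraries, against 643 and 816 in the DMSO libraries. Zeb1 stood at 2258 and 2064 in the JNKi libraries, against 2273 and 2139 in the DMSO libraries. Zeb2 stood at 1613 and 1508 in the JNKi libraries, against 1419 and 1408 in the DMSO libraries. Sox4 at 15275 and 10921 with JNKi and 15289 and 11214 with DMSO and Tcf3 at 3847 and 3763 with JNKi and 4649.9 and 4356 with DMSO were not called either. None of 24 junction and polarity genes was called (median -0.05), with 9 at an unadjusted p under 0.05, 2 called by edgeR and 1 by DESeq2. Jup, plakoglobin, stood at 21540.0 and 22158 with JNKi and 24606 and 22358 with DMSO and Cldn12 at 16952 and 19049 with JNKi and 15027 and 16415 with DMSO. A p that misses the threshold with 2 libraries per arm does not show that these levels were equal.

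Some mesenchymal and contractile genes did change. Of 12 mesenchymal adhesion and filament genes 3 were lower and none higher (median -0.07). Mcam, an immunoglobulin-type adhesion molecule also called CD146, stood at 2506 and 2216 in the JNKi libraries, against 4256 and 4763 in the DMSO libraries. Mcam differed by -0.93 (SE 0.12, limma adjusted p = 0.00163) on the log2 scale, and was called without the block. Pdgfrb, a PDGF receptor of mesenchymal cells, stood at 261 and 285 in the JNKi libraries, against 443 and 506 in the DMSO libraries. Pdgfrb differed by -0.79 (SE 0.15, limma adjusted p = 0.0164) on the log2 scale. S100a4, named after its values were seen, fell by 0.42 (limma adjusted p = 0.0351). Cd44, the hyaluronan receptor, at 24348 and 19984 with JNKi and 22277 and 18699.6 with DMSO was not called. Of 18 SRF and contractile genes 1 rose and 1 fell (median -0.10). Acta2, smooth-muscle actin, stood at 1514 and 2582 in the JNKi libraries, against 934 and 1091 in the DMSO libraries. For Acta2 the log2 difference was 0.97 (SE 0.16, limma adjusted p = 0.00751). It was higher in both pairs and more so in replicate 2. Mylk, myosin light chain kinase, stood at 769 and 632 in the JNKi libraries, against 1026 and 837 in the DMSO libraries. Mylk differed by -0.41 (SE 0.09, limma adjusted p = 0.0247) on the log2 scale. Myh9 at 141187 and 135214 with JNKi and 149536 and 149079 with DMSO and Flna at 117362 and 136215 with JNKi and 133523 and 154030.0 with DMSO were not called. The same 2 genes were the calls among 11 mammary basal and myoepithelial markers (median 0.02), where Itgb4 at 8346 and 7749.7 with JNKi and 9509 and 8652 with DMSO and Itga6 at 2749 and 2393 with JNKi and 2644 and 2429 with DMSO were not called. None of 7 luminal markers was called (median -0.06), with 0 at an unadjusted p under 0.05, 0 called by edgeR and 0 by DESeq2.

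Of 15 tested cytokines 3 were lower and none higher, where 1.65% of all genes were called lower. The list as a whole was even, with 8 differences positive and 7 negative (median 0.00). Il11, an IL-6-type cytokine induced by TGF-β in many cells, stood at 12245 and 9660.3 in the JNKi libraries, against 19129 and 21396 in the DMSO libraries. For Il11 the log2 difference was -0.90 (SE 0.11, limma adjusted p = 0.00113). Both JNKi libraries were clearly below both DMSO libraries. Il18 stood at 34.2 and 22.5 in the JNKi libraries, against 64.4 and 51.0 in the DMSO libraries. Il18 differed by -1.02 (SE 0.25, limma adjusted p = 0.0462) on the log2 scale. Clcf1, another IL-6-type cytokine named after its values were seen, fell by 0.46 (limma adjusted p = 0.00167). Csf1, the macrophage colony-stimulating factor, stood at 15489 and 20640.1 in the JNKi libraries, against 13916 and 16087 in the DMSO libraries and was not called. With GC content and length regressed out the same number, 3, were lower, and without the block none.

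Notch genes fell in 2 of 11 tested members and rose in none (median -0.17). Dll4, a Notch ligand known from tip cells of vessels, had the largest called decrease, at 48.9 and 33.0 in the JNKi libraries, against 107 and 104 in the DMSO libraries. For Dll4 the log2 difference was -1.37 (SE 0.29, limma adjusted p = 0.0251). Notch4 stood at 1555 and 1447 in the JNKi libraries, against 2281 and 2561 in the DMSO libraries. Notch4 differed by -0.69 (SE 0.11, limma adjusted p = 0.0051) on the log2 scale. Jag1 at 32255 and 27211 with JNKi and 32847 and 28028 with DMSO and Notch2 at 17033 and 14063 with JNKi and 17494 and 15107 with DMSO were not called. Of the endothelial markers, Pecam1 stood at 3.3 and 6.4 with JNKi and 5.7 and 3.5 with DMSO, and of the 3 tested none was called (median 0.12), with 2 at an unadjusted p under 0.05, 0 called by edgeR and 0 by DESeq2. Flt1 stood at 415 and 353 with JNKi and 498 and 433 with DMSO and Cdh5 at 219.9 and 246 with JNKi and 199 and 229.5 with DMSO. None of 5 tested leukocyte markers was called (median -0.20), with 2 at an unadjusted p under 0.05, 1 called by edgeR and 0 by DESeq2. Cd14 stood at 942 and 718 with JNKi and 946 and 771 with DMSO and Csf1r at 613 and 498 with JNKi and 684 and 679.7 with DMSO. No adipocyte marker was high enough to test.

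Growth factor and Wnt genes had 1 call each, both lower, where 1.65% of all genes were called lower. Among 11 ErbB receptors and ligands (median 0.12) it was Erbb2, at 2425 and 2365 in the JNKi libraries, against 3045 and 3216 in the DMSO libraries. For Erbb2 the log2 difference was -0.39 (SE 0.06, limma adjusted p = 0.00531). Egfr at 7854 and 6487 with JNKi and 7191 and 6008 with DMSO and Hbegf at 5069.8 and 3702 with JNKi and 5476 and 3995 with DMSO were not called. Among 9 Wnt ligands and β-catenin targets (median -0.02) it was Wnt4, at 777 and 759 in the JNKi libraries, against 992 and 957 in the DMSO libraries. Wnt4 differed by -0.34 (SE 0.08, limma adjusted p = 0.032) on the log2 scale, and the call was lost with GC content and length regressed out (-0.28, adjusted p = 0.0571). Wnt7b at 19588 and 19190.4 with JNKi and 22064 and 19732 with DMSO and Wnt7a at 4878 and 5043 with JNKi and 4788 and 4718 with DMSO were not called. None of 23 YAP and TEAD genes was called (median -0.04), with 5 at an unadjusted p under 0.05, 2 called by edgeR and 0 by DESeq2. Ctgf stood at 115972 and 96043 with JNKi and 135624 and 117578 with DMSO and Ankrd1 at 55930.1 and 43985 with JNKi and 61148 and 52495 with DMSO.

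The rest of the largest increases came from transporters, enzymes and single genes. Slc1a1, a carrier of glutamate and cysteine, stood at 26.9 and 77.2 in the JNKi libraries, against 11.4 and 7.9 in the DMSO libraries. Slc1a1 reached the filter through the JNKi libraries alone, with a mean over the 4 libraries of 30.9. Its log2 difference was 3.14 in replicate 2 and 1.17 in replicate 1, a description, and its call is not read as a result. Slc7a11, the cystine antiporter, showed the same imbalance, at 292 and 690.3 in the JNKi libraries, against 203 and 203 in the DMSO libraries. Slc7a11 differed by 1.14 (SE 0.24, limma adjusted p = 0.0217) on the log2 scale. It was the only call among 19 NRF2 and glutathione genes (median -0.07), where Prdx1 at 19503 and 14579.8 with JNKi and 19912 and 17575 with DMSO and Txnrd1 at 7413 and 6513 with JNKi and 7189 and 6839 with DMSO were not called. Atp2a3, a calcium pump of the endoplasmic reticulum, stood at 52.9 and 144 in the JNKi libraries, against 36.0 and 32.5 in the DMSO libraries. For Atp2a3 the log2 difference was 1.33 (SE 0.31, limma adjusted p = 0.0381), again mainly from replicate 2. Chchd10, a mitochondrial protein, stood at 52.1 and 77.2 in the JNKi libraries, against 21.5 and 22.0 in the DMSO libraries. Chchd10 differed by 1.50 (SE 0.25, limma adjusted p = 0.00667) on the log2 scale. Bcl2l15, of the BCL2 family, stood at 143 and 149 in the JNKi libraries, against 51.1 and 51.0 in the DMSO libraries. For Bcl2l15 the log2 difference was 1.50 (SE 0.22, limma adjusted p = 0.00266). The replicates of each arm nearly coincided. Ptpn22, a tyrosine phosphatase studied mostly in lymphocytes, stood at 43.2 and 74.0 in the JNKi libraries, against 15.8 and 22.0 in the DMSO libraries. Ptpn22 differed by 1.55 (SE 0.38, limma adjusted p = 0.0477) on the log2 scale, and lost its call with GC content and length regressed out (1.48, adjusted p = 0.0602). Without replicate 1, Chchd10, Bcl2l15, Ptpn22 and Cd74 of the 12 largest increases lost their calls. Without replicate 2, every one of the 12 but Sprr2h did.

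Among the largest decreases outside the groups above, Synpo, an actin-associated protein, stood at 1234 and 522 in the JNKi libraries, against 2191 and 1755 in the DMSO libraries. For Synpo the log2 difference was -1.29 (SE 0.20, limma adjusted p = 0.00498). Rufy4 stood at 810.4 and 644 in the JNKi libraries, against 1399.7 and 1359 in the DMSO libraries. Rufy4 differed by -0.93 (SE 0.14, limma adjusted p = 0.00498) on the log2 scale. Anks1b stood at 93.7 and 90.9 in the JNKi libraries, against 183 and 178 in the DMSO libraries. For Anks1b the log2 difference was -0.96 (SE 0.20, limma adjusted p = 0.0212), and both pairs differed by -0.96. Slc2a5, the fructose transporter, stood at 56.2 and 35.4 in the JNKi libraries, against 100.4 and 75.6 in the DMSO libraries. Slc2a5 differed by -0.95 (SE 0.21, limma adjusted p = 0.032) on the log2 scale. The chloride channel accessory genes Clca1 and Clca4, members of a cluster of similar copies whose reads may be split, were lower. Clca1 stood at 42.4 and 33.8 in the JNKi libraries, against 97.2 and 80.9 in the DMSO libraries, with -1.21 (limma adjusted p = 0.00865). Clca4 stood at 2421 and 1085 in the JNKi libraries, against 3427 and 2763 in the DMSO libraries, with -0.92 (limma adjusted p = 0.0112). The decreases of Synpo and Clca4 came mainly from replicate 2, at -1.75 and -1.35 on the log2 scale, against -0.83 and -0.50 in replicate 1. Those of Mcam and Rufy4 were also larger in replicate 2, at -1.10 and -1.08 against -0.76 and -0.79. Neurl3 and Slc4a8 are named because the fit without the block called them too. Neurl3, an E3 ubiquitin ligase, stood at 162 and 196 in the JNKi libraries, against 85.2 and 81.8 in the DMSO libraries. For Neurl3 the log2 difference was 1.09 (SE 0.13, limma adjusted p = 0.00113). Slc4a8, a bicarbonate transporter, stood at 3639 and 3301 in the JNKi libraries, against 4639 and 4768 in the DMSO libraries. Slc4a8 differed by -0.44 (SE 0.06, limma adjusted p = 0.00261) on the log2 scale.

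Metabolic and stress lists had few calls, where 1.01% of all genes were called higher and 1.65% lower. Of 26 ATF4, CHOP and unfolded protein response genes 1 rose and 3 fell (median 0.11). The median of this list was -0.06 in replicate 1 and 0.28 in replicate 2. Psat1, an enzyme of serine synthesis, stood at 5416 and 8519 in the JNKi libraries, against 4938 and 4927 in the DMSO libraries. For Psat1 the log2 difference was 0.46 (SE 0.10, limma adjusted p = 0.0331), with 0.79 in replicate 2 and 0.13 in replicate 1. Of the endoplasmic reticulum folding proteins, Hsp90b1 stood at 21232 and 18467 in the JNKi libraries, against 23931 and 25965 in the DMSO libraries. Hsp90b1 differed by -0.33 (SE 0.07, limma adjusted p = 0.031) on the log2 scale. Pdia4 stood at 6801 and 6556 in the JNKi libraries, against 8216 and 8604 in the DMSO libraries. For Pdia4 the log2 difference was -0.33 (SE 0.07, limma adjusted p = 0.0181). Pdia6, named after its values were seen, fell by 0.24 (limma adjusted p = 0.0377). Hspa5, the master chaperone BiP, stood at 36250.2 and 31312 in the JNKi libraries, against 37192 and 34372 in the DMSO libraries and was not called. Of 28 sterol and fatty acid synthesis genes (median 0.05) Sc4mol, a sterol demethylating enzyme, rose to 2820.4 and 2602 in the JNKi libraries, against 2068 and 2183 in the DMSO libraries, with 0.35 (limma adjusted p = 0.0181). Srebf1, their regulator, fell to 3737 and 3867 in the JNKi libraries, against 4356 and 4637 in the DMSO libraries, with -0.24 (limma adjusted p = 0.0331, and -0.15 with adjusted p = 0.145 with GC content and length regressed out). Scd2 at 277594 and 248780.0 with JNKi and 238650.0 and 233321 with DMSO and Fasn at 16983 and 15909 with JNKi and 16850.2 and 17385 with DMSO were not called. Of 23 glycolysis and hypoxia genes (median -0.10) Egln3, an oxygen-sensing prolyl hydroxylase, rose to 502 and 443 in the JNKi libraries, against 268 and 256 in the DMSO libraries, with 0.85 (limma adjusted p = 0.0014). Slc2a1, the glucose transporter, fell to 4270.1 and 3633 in the JNKi libraries, against 4979 and 4615 in the DMSO libraries, with -0.28 (limma adjusted p = 0.0484, and -0.25 with adjusted p = 0.074 with GC content and length regressed out). Pgam1 at 299789 and 255239 with JNKi and 308500.0 and 269754 with DMSO and Pkm2 at 50451 and 42877 with JNKi and 56531 and 47956 with DMSO were not called. Of 7 tested genes of the aryl hydrocarbon receptor and its targets (median 0.39) Aldh3a1, an aldehyde dehydrogenase, was the only one called. It stood at 26.9 and 18.5 in the JNKi libraries, against 8.8 and 5.3 in the DMSO libraries. It reached the filter through the JNKi libraries alone, though its mean over the 4 libraries was 14.9, so the call is not read as a result. Cyp1b1 at 3933 and 3333 with JNKi and 2251 and 3403 with DMSO and Tiparp at 3748 and 2509 with JNKi and 2029 and 2227 with DMSO were not called.

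**Figure D3:**
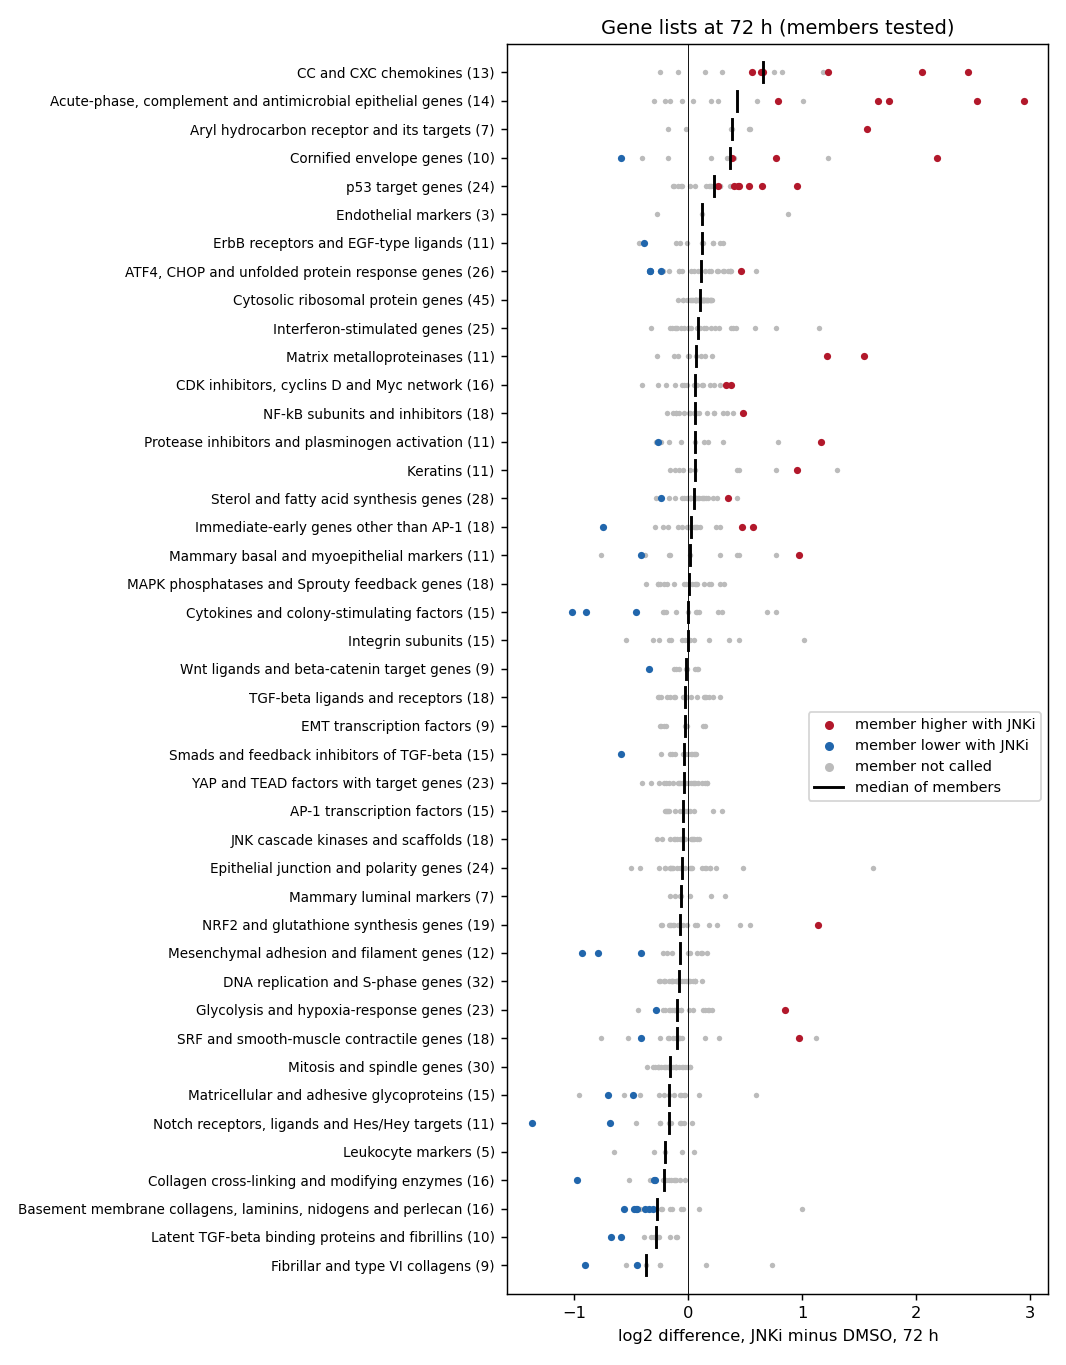
Each point is a tested member of the list named at the left (number tested in brackets), placed by its log2 difference JNKi minus DMSO at 72 h, with called members in colour and the median of each list as a bar. The 2 highest points of the acute-phase list are Saa3 and S100a9, which reached the filter through the JNKi libraries alone. Their place and colour are therefore not read as a result, nor is the colour of Aldh3a1 in the aryl hydrocarbon receptor list. The bar of that list is over all 14 members (0.43), against 0.23 over the 12 that averaged 10 or more over the 4 libraries. Chemokines head the plot with a median of 0.65, and fibrillar and type VI collagens stand at its foot with -0.37.

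Set beside the other times in the same model, 72 h lay between few and many calls. At 24 h, 48 h, 96 h and 7 d, 19 (0.152%), 15 (0.12%), 99 (0.791%) and 3425 (27.4%) of the 12516 genes were called, beside the 334 of 72 h. In the same order of times, 16 (0.128%), 15 (0.12%), 44 (0.352%) and 1581 (12.6%) were higher and 3 (0.024%), 0 (0%), 55 (0.439%) and 1844 (14.7%) lower. For lower genes at 48 h, where limma called 0, 633 had an unadjusted p under 0.05. The times share no library. Of the 127 genes higher at 72 h, 3, 7, 21 and 71 were also called higher at 24 h, 48 h, 96 h and 7 d, which is 2.36%, 5.51%, 16.5% and 55.9% of them and 18.8%, 46.7%, 47.7% and 4.49% of the genes called higher at those times. Of the 207 genes lower at 72 h, 0, 0, 22 and 103 were also called lower (10.6% at 96 h and 49.8% at 7 d), which is 40% of the genes called lower at 96 h and 5.59% of those at 7 d. At 7 d, 7 of the higher and 20 of the lower genes were called in the opposite direction. The 24 h libraries gave such calls for 1 of the higher and 2 of the lower genes, those of 96 h for 2 of the higher, and those of 48 h for none.

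The course over the 5 times differed among the named genes. Mcam had log2 differences of 0.18, -0.10, -0.93, -0.46 and -1.67 at 24 h, 48 h, 72 h, 96 h and 7 d, and Tnc of 0.23, -0.21, -0.70, -0.67 and -1.67. Mmp13 was positive at each time, at 0.43, 1.35, 1.54, 1.08 and 2.24. Lcn2, in contrast, had 0.45, 0.17, 1.67, 0.65 and -0.17, and Dll4 -0.49, -0.57, -1.37, 0.16 and 0.37. The difference at 72 h minus the mean of the other 4 times was tested over 13896 genes and called for 1 (0.0072%), Adh7, an alcohol dehydrogenase that oxidises retinol. Adh7 stood at 1204 and 1429 in the JNKi libraries, against 746 and 827 in the DMSO libraries, with 0.74 (SE 0.07, limma adjusted p = 0.000327) at 72 h. Its differences at the other times were -0.05, 0.27, 0.32 and -0.11, and 72 h exceeded their mean by 0.63 (limma adjusted p = 0.0272). Without the block the adjusted p of Adh7 at 72 h was 0.453. No gene passed the test between times without the block, without the 24 h libraries or without replicate 2. For Lcn2 and Dll4 the same test was not passed (limma adjusted p = 0.0736 and 0.207).

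**Figure D4:**
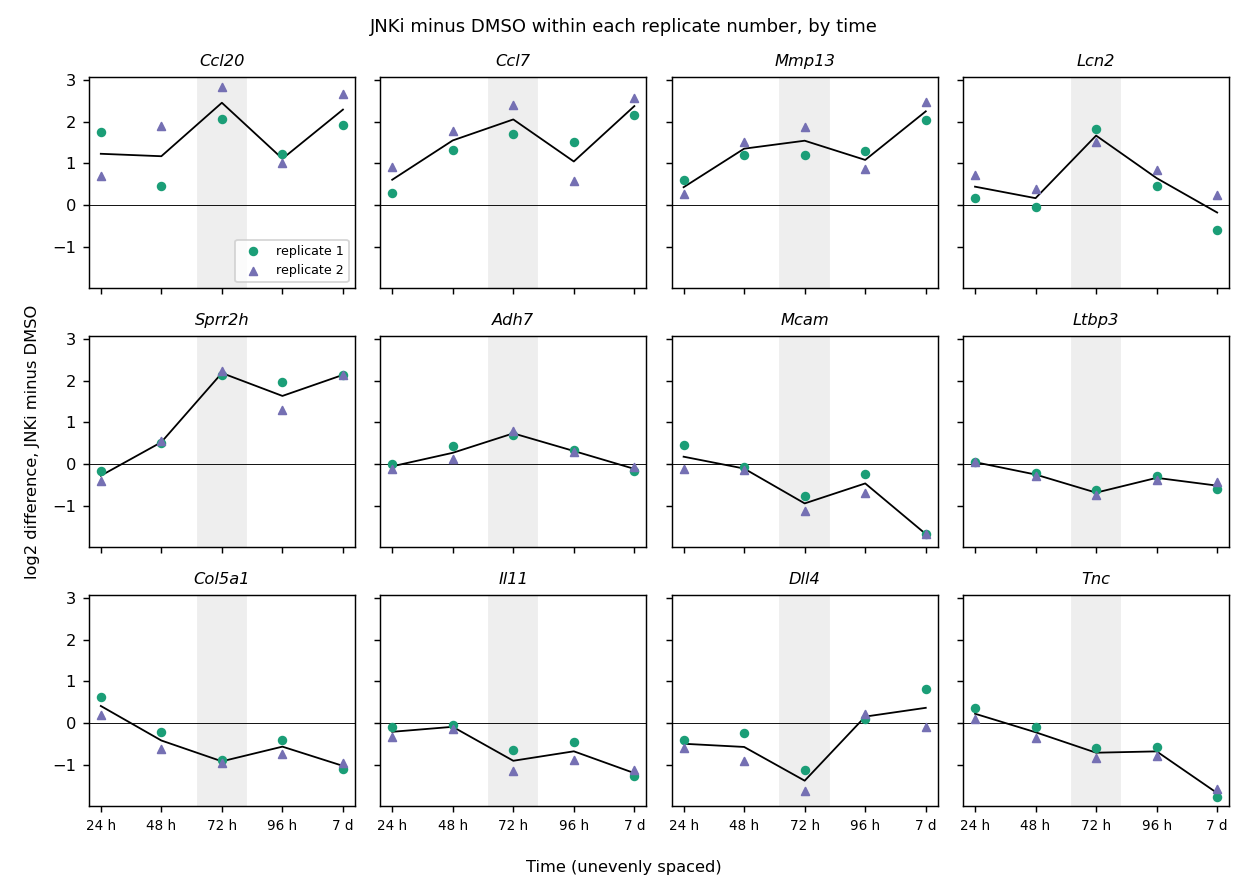
Each panel shows the log2 difference JNKi minus DMSO of 1 gene at the 5 times, as points for replicate 1 (circles) and replicate 2 (triangles) joined by the line of their mean, with 72 h shaded and the time axis unevenly spaced. At 72 h both points of every panel lie on the same side of 0.

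The differences also followed the base composition of the transcripts. Across 9459 genes whose mean reached 200 and that had a matched transcript, the difference of replicate 1 had a Spearman correlation of -0.57 with GC content and that of replicate 2 of -0.15, a description across genes. The called higher genes had a median GC content of 47.1% and the called lower genes of 56.4%, against 49.8% over all genes of the comparison. Over 10 equal bins of GC content, from the lowest to the highest, the median difference went down from 0.116 to -0.149 in replicate 1 and from 0.0111 to -0.0662 in replicate 2, and the share called lower went up from 0% to 5.73%. With GC content and transcript length regressed out of each library, 352 genes were called, 124 higher and 228 lower. Of the 330 calls that could be fitted again, 236 were called there as well, 96 of those higher and 140 of those lower. The part of base composition in the calls beyond these counts was not tested.

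**Figure D5:**
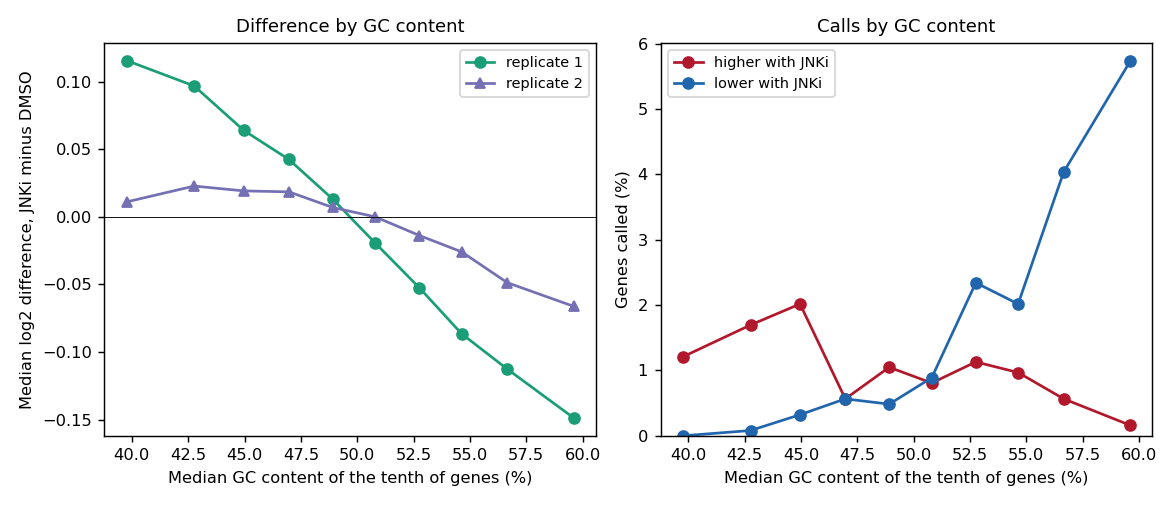
Genes of the comparison in 10 equal bins by GC content of their longest transcript, with the median log2 difference JNKi minus DMSO of each replicate (left) and the percentage of genes called higher or lower (right). The line of replicate 1 falls more steeply than that of replicate 2, and called decreases are concentrated in the bins of high GC content.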

How the data were processed

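RNA from NMuMG cells under JNKi or DMSO was sequenced at 5 times, 2 libraries per arm and time. Reads were processed with TopHat, HTSeq and DESeq against mouse build mm9, per the submitters' processing notes, with no version given in the sources used here. The strand setting of the counting is not stated either, so a gene that overlaps another, on either strand, or has a close copy is uncertain. The deposited signal is the normalized read count per gene, which the authors rounded to 1 decimal. Every value was a whole multiple of a library's smallest step within a tolerance of 0.1 read (100% of values), which gave whole reads for edgeR 4.0.16 and DESeq2 1.42.0 as alternatives. That recovery sets the depths, 36.9 and 35.5 M reads with JNKi and 48.6 and 33.6 M with DMSO.

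The main test was limma 3.58.1 in R 4.3.3 on log2(normalized read count + 1), with variance trend, 10 group means over 20 libraries and the replicate number as a block within each time (5 residual degrees of freedom). It was fitted to 13896 genes that averaged 10 or more in any group, and p-values were adjusted over them by Benjamini-Hochberg. A call is an adjusted p under 0.05, two-sided. An exact permutation test of 2 libraries against 2 cannot go below p = 0.333 two-sided and was not used. The scripts were tested on simulated data.

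Genes and gene lists were chosen with earlier results of these data known. Named genes are the 12 largest called differences each way with a mean of at least 50 and no overlap, 10 preset genes, up to 4 members per list (2 largest called, 2 highest read counts), genes called between times, and genes called without the block. 1 gene that this rule takes is not reported here. Those named after their values were seen are marked. GC content and length are those of the longest GENCODE transcript matched by symbol (98.6% to 99.2% of the called genes). The table of the TGF-β time course was not used, because its values were split at the decimal point, with cells that jump both ways along the series in 95.7% of the 11405 genes that reach 100 in some cell. The alternatives comprised fits with no block, fewer libraries, other pseudocounts (0.5 and 8), filters, scalings (TMM, upper quartile), count tests and GC content regressed out.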

Additional observations from a re-analysis of the deposited data

Results flagged for a closer look

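The difference between arms at 72 h stood apart from the mean of the other 4 times for Adh7, by 0.63 on the log2 scale (limma adjusted p = 0.0272, 1 of 13896 genes). Both replicates were positive at 72 h, at 0.69 and 0.79, and the mean difference was -0.05 at 24 h and -0.11 at 7 d.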

How the results depend on the processing

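Replicate numbers come from the labels, which tie them to no shared culture or day. Over 9605 genes, the replicate steps of JNKi and DMSO correlated at 0.73, 0.59, 0.72 and 0.53 at 24 h, 48 h, 72 h and 96 h, but at 0.07 at 7 d, so the numbers are not shown to pair the samples. The block was kept because differences are taken within a replicate number. With no replicate block 10 genes were called (6 higher, 4 lower; 1125 at an unadjusted p under 0.05), and 10 with GC content and length regressed out as well (6 and 4), an alternative chosen after seeing the data like the others on GC content. The 4 libraries of 72 h alone gave 0 calls with the block and 0 without it by limma (0 higher and 0 lower each; 2792 and 968 at an unadjusted p under 0.05), with only 1 residual degree of freedom under the block. Leaving out 1 library gave 1 to 59 calls, 1 to 36 higher and 0 to 23 lower, the lone library being assumed to vary like the other groups. Without the 24 h libraries 128 genes were lower, and without the 7 d libraries 722 were called (257 higher, 465 lower). No filter on low values gave 2 (1 and 1), limma without the trend 3 (3 and 0), edgeR 655 (233 and 422, all 334 among them), and a difference of at least 1 on the log2 scale 38 (33 and 5). Other pseudocounts, a minimum mean of 50, the TMM and upper quartile scalings, robust variances, DESeq2, GC content regressed out with the block and the fits without 48 h or 96 h stayed within 1.5 times the 334. Under 24 alternatives none of the 334 called genes had the other sign. Several of these fits keep the 72 h difference as it is or return that of 1 pair. As both pairs of all 334 genes share a sign, such fits could not give the other one. Of the 334, 8 reached the mean of 10 through the JNKi libraries alone, and requiring it over all 4 libraries, a choice made after seeing the data, kept 331 calls (124 higher, 207 lower). It put the median of the protease inhibitor and plasminogen list at -0.0020.

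The count of genes whose 72 h difference stood apart from the other times, 1, became 0 with no replicate block (527 at an unadjusted p under 0.05), also with GC content and length regressed out (0), 0 without 24 h, with no filter or with a difference of at least 1, 2 without 48 h, 3 without 96 h, 17 without 7 d, 3 with the mean of at least 50 or robust variances, 23 with edgeR, 19 with DESeq2, 1 but another gene than Adh7 with limma without the trend, 2 with GC content or with GC content and length regressed out, and 0 to 21 with 1 library left out. The causes were not tested. Over the named genes, 682 of the values under an alternative lost a call, 16 gained one and 2899 stayed on their side. The 2899 include values of genes that the main fit did not call, which have no call to lose. With the 4 libraries of 72 h alone and the block, where no gene was called, 69 named genes lost their call and 81 stayed uncalled. Depth of 33.6 to 48.6 M reads limits the genes of under 100 normalized reads most, where 1 read is worth 0.631 to 0.879.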
